A study of Mus musculus with 8 samples.

Results

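The mitochondrial iron-sulfur cluster assembly genes Lyrm4, Nfs1, Iscu, Isca1, Isca2, Iba57, Glrx5, Hscb and Nfu1 were followed across 4 peak lists from mouse skin. The 9 genes were taken by name from 26180 genes with a curated RefSeq transcription start site (TSS). A gene was counted as having a peak when at least 1 bp of the peak fell within its promoter, which was taken as the 1 kb upstream of a TSS and the first 100 bp downstream. All 9 members carried H3K4me3 and H3K27Ac at the promoter, 7 carried MOF, and Lyrm4 alone carried Rfx2.

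All libraries were made from total epidermis of wildtype mice at postnatal day 0.5, with no allele or treatment added. The back skin epidermis was freed from the dermis enzymatically and made into single cells, so the libraries can hold any cell type of that layer. MOF, the acetyltransferase of lysine 16 on histone H4, was mapped by ChIPseq in fixed chromatin. Rfx2, a transcription factor that binds the X-box, and the marks H3K4me3 (active promoters) and H3K27Ac (active promoters and enhancers) were mapped by Cut&Run, where a nuclease tethered to the bound antibody cuts out the surrounding DNA. One list of 1 library was used for each antibody, so no value below has a replicate error and no difference between groups of samples could be tested. H3K4me3 and H3K27Ac had 2 libraries each, and 1 list of each was used. For H3K4me3 it is not certain which library gave the list, since the labels attach it to the repeat while its peak names do not say so. Libraries for H4K16Ac and H3K4me1 were not analysed here.

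Iron-sulfur clusters are small inorganic cofactors that carry electrons or hold substrates in many enzymes. In the mitochondrial matrix, a cysteine desulfurase (Nfs1 with its small partner Lyrm4) provides the sulfur, and the cluster is built on the scaffold protein Iscu. The co-chaperone Hscb brings the loaded scaffold to an HSP70 chaperone, the glutaredoxin Glrx5 takes the cluster over, and Isca1, Isca2 and Iba57 make larger clusters from it. Nfu1 is a late carrier that hands such clusters to particular enzymes, among them the one that makes lipoic acid. The pathway is used by nearly every cell that has mitochondria.

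The promoter sequences of the members are shown first because most of these genes start back to back with another gene. Of the 9 members, 7 had a divergent neighbour, meaning a gene on the other strand transcribed away from a TSS within 1 kb, compared with 20% of all genes with H3K4me3. With protein-coding transcripts alone, 5 of the 9 had one. The distance between the paired starts was 47 bp for Nfs1 and Romo1 (a mitochondrial inner membrane protein), 158 bp for Isca2 and Npc2 (a lysosomal cholesterol carrier), 177 bp for Isca1 and Etohd2, and 206 bp for Hscb and Chek2 (a kinase of the DNA damage checkpoint). It was 286 bp for Lyrm4 and Fars2 (the mitochondrial phenylalanyl-tRNA synthetase), 339 bp for Glrx5 and the long noncoding RNA Snhg10, and 401 bp for Iscu and Sart3 (a factor that recycles spliceosomal particles). Iba57 and Nfu1 had no such neighbour.

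The sequences, taken from the GRCm38.p6 assembly (mm10), end at the base before the TSS of the member and read in its direction of transcription. For Lyrm4, Isca1 and Isca2 they span the whole interval between the paired starts, and for Glrx5, Iba57 and Nfu1 the 250 bases before the TSS. Capitals mark matches to the searched motifs: the X-box (14 bases at Lyrm4), GGGCGG of SP/KLF factors, CCAAT of NFY, CCGGAAG of ETS factors and GCGCANGCG of NRF1, each on either strand. Lyrm4 is shown as the one with Rfx2, Isca1 and Isca2 as short shared intervals, Glrx5 for its repeated CCAAT, and Iba57 and Nfu1 as unpaired promoters with and without MOF.
Lyrm4 (chr13:36117358-36117642, minus strand): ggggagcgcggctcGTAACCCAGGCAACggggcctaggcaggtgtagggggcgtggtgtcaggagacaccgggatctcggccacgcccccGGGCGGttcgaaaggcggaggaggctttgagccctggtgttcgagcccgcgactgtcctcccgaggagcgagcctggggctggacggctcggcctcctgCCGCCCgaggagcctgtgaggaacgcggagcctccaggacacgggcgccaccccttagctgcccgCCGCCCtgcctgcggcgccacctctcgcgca
Isca1 (chr13:59769790-59769965, minus strand): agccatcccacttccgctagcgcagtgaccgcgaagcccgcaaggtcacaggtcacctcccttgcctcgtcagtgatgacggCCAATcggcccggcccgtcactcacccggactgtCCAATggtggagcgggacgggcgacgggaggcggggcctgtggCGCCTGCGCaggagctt
Isca2 (chr12:84773113-84773269, plus strand): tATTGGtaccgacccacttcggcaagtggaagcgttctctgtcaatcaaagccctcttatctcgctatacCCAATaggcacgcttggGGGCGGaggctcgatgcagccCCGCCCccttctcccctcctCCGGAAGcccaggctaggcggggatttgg
Glrx5 (chr12:105032368-105032617, plus strand): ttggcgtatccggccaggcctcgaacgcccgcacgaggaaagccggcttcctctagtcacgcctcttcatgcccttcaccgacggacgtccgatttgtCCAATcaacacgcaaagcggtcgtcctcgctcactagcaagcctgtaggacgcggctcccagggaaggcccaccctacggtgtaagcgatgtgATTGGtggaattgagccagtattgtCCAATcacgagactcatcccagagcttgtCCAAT
Iba57 (chr11:59163746-59163995, minus strand): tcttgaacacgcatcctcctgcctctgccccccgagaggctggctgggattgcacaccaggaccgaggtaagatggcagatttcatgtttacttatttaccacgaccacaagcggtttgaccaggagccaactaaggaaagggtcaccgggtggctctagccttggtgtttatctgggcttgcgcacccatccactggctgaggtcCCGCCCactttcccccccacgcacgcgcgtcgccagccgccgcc
Nfu1 (chr6:87009586-87009835, plus strand): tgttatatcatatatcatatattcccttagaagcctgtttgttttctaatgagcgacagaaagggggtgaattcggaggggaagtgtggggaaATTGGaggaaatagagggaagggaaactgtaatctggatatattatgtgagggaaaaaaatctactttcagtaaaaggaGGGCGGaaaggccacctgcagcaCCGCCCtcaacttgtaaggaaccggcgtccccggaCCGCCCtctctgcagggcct

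Promoter windows from 250 bases before to 50 after the TSS were found in the RefSeq promoter table (GRCm38.p6) for 7 members. Iscu and Hscb had no entry. The number of CG dinucleotides in these 300 bases was 35 for Nfs1, 34 for Lyrm4, 27 for Isca1, 24 for Iba57 and Glrx5, 22 for Isca2 and 13 for Nfu1. The members' median of 24 stood beside a median of 12 over 23307 promoters and of 21 over the 14098 promoters of genes with H3K4me3. Nfu1 was the poorest of the 7 in CG dinucleotides and had a GC content of 50.3%, compared with 73.3% at Lyrm4.

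No motif was present in all 7 windows. CCAAT of NFY was found in 4 (Isca1, Isca2, Glrx5 and Nfu1), compared with 37.7% of promoters of genes with H3K4me3. Glrx5 held 4 copies in its last 152 bases, and the final one ended at the base next to the TSS. GGGCGG of SP/KLF factors, which bind GC boxes, was found in 4 (Lyrm4, Isca2, Iba57 and Nfu1), compared with 64.2%. CCGGAAG of ETS factors was found in 3 (Nfs1, Isca1 and Isca2), compared with 16.9%. The ETS match of Isca1 lies outside its printed sequence. GCGCANGCG of NRF1, a regulator of many nuclear genes for mitochondrial proteins, was found in 2 (Isca1 and Nfu1), compared with 12.9%. The printed Isca1 sequence holds its NRF1 match 9 to 17 bases before the TSS, while that of Nfu1 falls in the 50 bases after the TSS. AANATGGCG of YY1 was found at Isca2 alone (4.66% of promoters of genes with H3K4me3). TATAAA, the core of the TATA box, was in none of the 7 windows, compared with 6.81%. Likewise absent were CACGTG, the E-box, found in 9.99% of such promoters, and ACTACAA of ZNF143, found in 3.82%. TGACGTCA, the CRE of cyclic AMP signalling, was also not found (3.06%), nor was the X-box (1.66%) in these 300 bases. The matches in capitals above do not overlap each other, and a match describes the sequence only.

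**Figure D1:**
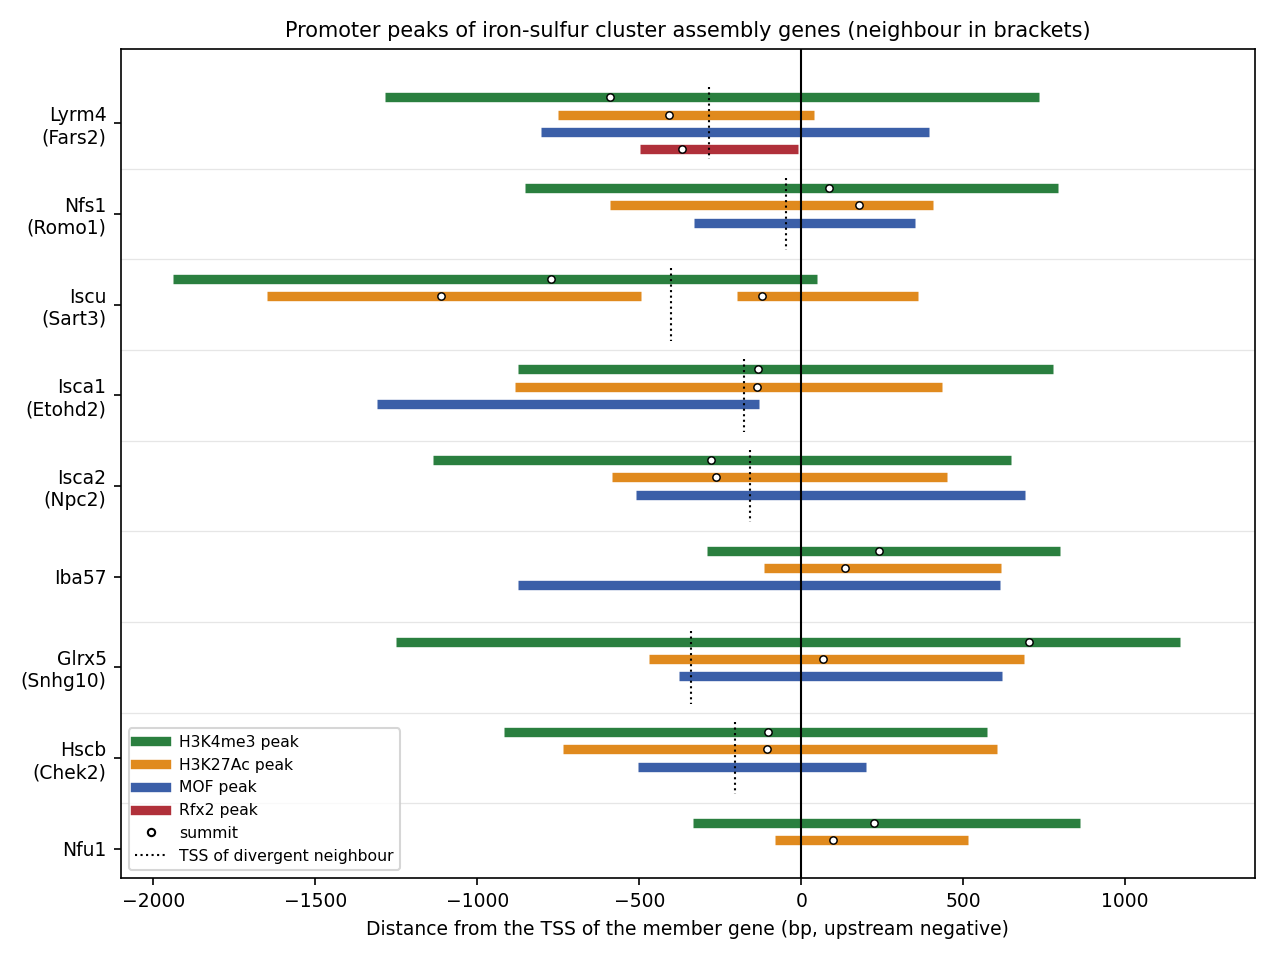
Promoter peaks of the 9 members drawn by distance from the TSS (bp, upstream negative). Each bar is 1 peak of H3K4me3, H3K27Ac, MOF or Rfx2, circles mark the summits of the lists that give them, the solid line is the TSS and dotted lines are the TSSs of the 7 divergent neighbours. MOF bars are present at 7 members and the single Rfx2 bar lies at Lyrm4, between 9 and 498 bp upstream.

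H3K4me3 was present at 9 of 9 members, compared with 54% of all genes, and H3K27Ac at 9 of 9, compared with 44.1%. MOF was present at 7 of 9, compared with 23.7% of all genes and with 48.8% of genes that had both marks. Rfx2 was present at 1 of 9, compared with 1.21% of all genes. With paired starts 47 to 401 bp apart, the promoter windows of a pair overlap in part and each holds the starts of both genes, so that a peak over either start counts for both. The same H3K4me3 peak overlapped both promoters of 7 of 7 pairs, and so did the same H3K27Ac peak. One MOF peak overlapped both promoters of 6 of 7 pairs, and at Iscu and Sart3 neither promoter had MOF. A peak in such a window was not assigned to either gene of the pair. Among genes with both marks, MOF was present at 62.8% of those with a divergent neighbour and at 44.7% of those without one. By the same split, 6 of 7 paired members and 1 of 2 unpaired members had MOF.

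The height of a peak is the fold enrichment over the local background of its library for Rfx2, H3K4me3 and H3K27Ac. For MOF it is the score of the list, whose scale was not stated. The MOF list holds 17546 regions, more than the number of MOF peaks that the study states, so it may be another or a less filtered call, and every MOF count and percentile rests on it. Heights were compared within a list only, as percentiles among all genes with a promoter peak of that list, and the lists hold no read counts for single peaks, so no counting interval could be given for a height. Where several peaks overlapped a promoter the highest was taken.

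Of the desulfurase pair, Lyrm4 had the highest MOF score and the highest H3K27Ac of the members and the one Rfx2 peak among them. Its MOF peak scored 996 (percentile 81.9) and was 1200 bp wide, and its H3K27Ac peak had a fold enrichment of 10.4 (percentile 92.8). Its H3K4me3 peak was of ordinary height, with a fold enrichment of 7.79 (percentile 46.8), but was 2020 bp wide (percentile 88.3 for width). The summits of H3K27Ac and H3K4me3 lay 408 and 591 bp upstream of the Lyrm4 TSS, beyond the start of Fars2 and inside that gene. The inner block of the MOF region, the narrower interval that the MOF list gives within most regions, ran from 234 to 765 bp upstream and also lay mostly over Fars2.

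The Rfx2 peak at Lyrm4 and Fars2 (chr13:36117366-36117855) was 490 bp wide, with a fold enrichment of 9.51 and a −log10 q of 11.4. Among the 317 genes with Rfx2 at the promoter it stood at percentile 76.7 for height and 93.5 for width. The summit lay 369 bp upstream of the Lyrm4 TSS, inside Fars2, and the peak ended 9 bp upstream of the Lyrm4 TSS. An X-box lay inside the peak, at chr13:36117615-36117628, 105 bp from the summit and between the paired starts. It is the first run of capitals in the Lyrm4 sequence above and ends 258 bases before the Lyrm4 TSS, just outside the 300-base window. In the longer window that holds this match, from 1 kb upstream to 100 bp past the start, the same search found an X-box at 2.95% of promoters of genes with H3K4me3. At the other 8 members the nearest Rfx2 peak was between 411453 bp (Isca2) and 7514181 bp (Nfs1) from the TSS.

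Among the 204 genes with peaks of all 4 lists at the promoter, the gene whose 4 percentiles were nearest to those of Lyrm4, leaving out Fars2 with its shared peaks, was Stam2, a component of endosomal sorting, at a Euclidean distance of 15.3 percentile points. Psmd13, a proteasome subunit, and Sirt3, a mitochondrial deacetylase, followed at 15.5 each, with the same peaks. The median distance of the others was 73.1. For Stam2 the percentiles were 76.7 for MOF, 62.3 for Rfx2, 46.9 for H3K4me3 and 92.4 for H3K27Ac.

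Nfs1, the desulfurase itself, had MOF at a score of 773 (percentile 64.3), H3K27Ac at a fold enrichment of 9.37 (percentile 86.6) and H3K4me3 at 7.82 (percentile 47.1). Its MOF peak of 684 bp was the narrowest of the 7 and lay almost symmetrically over both starts of the pair, from 331 bp upstream to 352 bp downstream of the Nfs1 TSS. The inner block covered the TSS of Nfs1. Both components of the desulfurase thus had H3K27Ac above percentile 75 and H3K4me3 just under percentile 50.

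Iscu, the scaffold, stood lowest of the 9 in H3K27Ac and next to lowest in H3K4me3, and it had no MOF at its promoter. Its H3K4me3 peak had a fold enrichment of 5.41 (percentile 16.0) and ran from 1939 bp upstream to 47 bp downstream of the TSS, with the summit 774 bp upstream and inside Sart3. Its higher H3K27Ac peak (fold enrichment 5.31, percentile 25.7) also lay over Sart3, ending 496 bp upstream of the Iscu TSS. A lower one, with a fold enrichment of 3.59 and 558 bp wide, covered the Iscu TSS itself.

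A MOF peak did lie near Iscu, inside the gene. It began 837 bp downstream of the TSS (chr5:113773638-113774339), was 702 bp wide, scored 594 and overlapped coding exon sequence. A second, low H3K4me3 peak (fold enrichment 3.26) began 204 bp downstream of the TSS and covered 154 bp, or 21.9%, of that MOF peak, while H3K27Ac covered none of it. When the promoter was extended to 1 kb downstream, Iscu counted as a member with MOF and the number rose to 8 of 9.

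**Figure D2:**
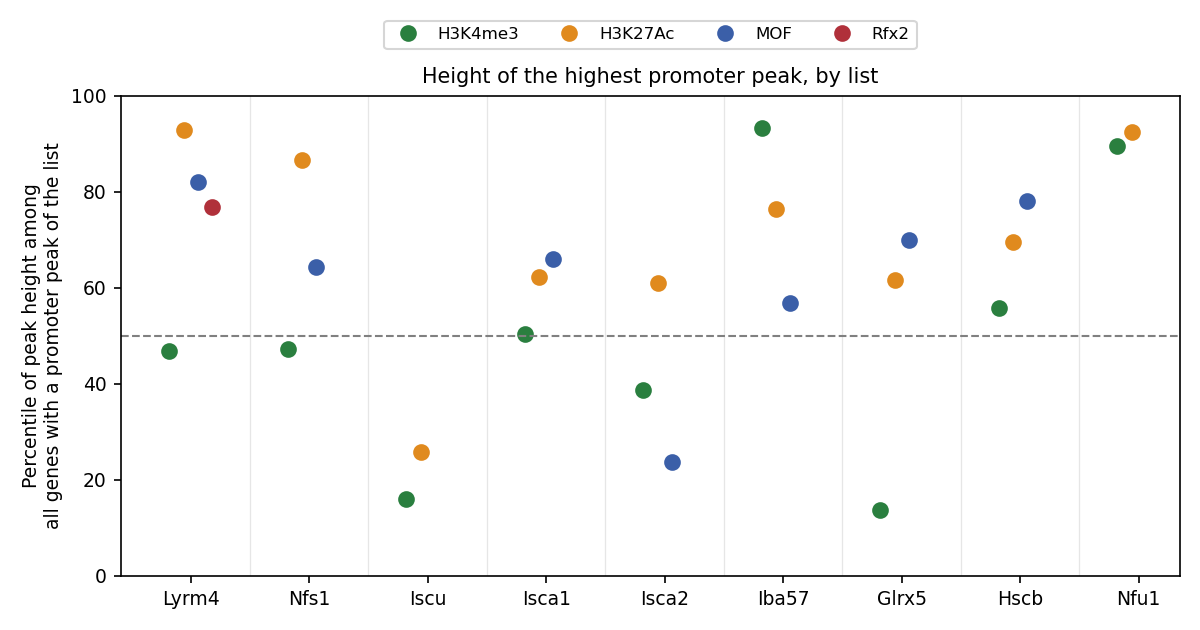
Percentile of the highest promoter peak of each list (0 to 100, among all genes with a promoter peak of that list) for the 9 members, 1 point for each list with a peak. H3K27Ac points lie above the dashed line at 50 for 8 of 9 members and MOF points for 6 of 7, whereas H3K4me3 points run from 13.7 (Glrx5) to 93.2 (Iba57).

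Hscb, the co-chaperone that shares its promoter with Chek2, had the second highest MOF score of the members, 920 (percentile 78.0), in a peak of 706 bp whose inner block covered the TSS. H3K27Ac was at a fold enrichment of 7.83 (percentile 69.5) and H3K4me3 at 8.43 (percentile 55.7). The summits of both marks lay 103 and 106 bp upstream, within the interval between the starts of Hscb and Chek2. Glrx5, the glutaredoxin, had MOF at a score of 825 (percentile 69.9) and H3K27Ac at a fold enrichment of 7.36 (percentile 61.6). Its H3K4me3 peak was the lowest of the 9 in height, 5.14 (percentile 13.7), and the widest, 2420 bp (percentile 96.1). The MOF inner block at Glrx5 lay downstream of the TSS, from 293 to 604 bp, and the H3K4me3 summit lay 703 bp downstream.

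The late-acting members differed from each other. Isca1 had MOF at a score of 789 (percentile 65.9), H3K27Ac at a fold enrichment of 7.39 (percentile 62.2) and H3K4me3 at 8.06 (percentile 50.4). Its MOF peak started 130 bp upstream of the TSS and ran away from the gene to 1310 bp upstream, so that it did not cover the TSS of Isca1 and lay mostly over Etohd2. Isca2, which works with Isca1, had the lowest MOF score of the 7, 494 (percentile 23.6), in a region with 3 inner blocks, one of which covered the TSS. Its H3K27Ac was at 7.33 (percentile 61.0) and its H3K4me3 at 7.25 (percentile 38.7). When the MOF list was cut to its stronger 50%, Isca2 was the one member lost.

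Iba57 had MOF at a score of 717 (percentile 56.7) in the widest MOF peak of the 7, 1491 bp. That peak reached 876 bp upstream of the TSS, past the upstream end of H3K4me3 at 292 bp, and 60.8% of its length lay in H3K4me3. At Lyrm4, Nfs1, Glrx5 and Hscb, by comparison, 100% of the MOF peak lay in H3K4me3, at Isca2 96.6% and at Isca1 63.2%. Iba57 had the highest H3K4me3 of the 9, with a fold enrichment of 12.5 (percentile 93.2), and H3K27Ac at 8.35 (percentile 76.4).

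Nfu1, the late carrier, had both marks at high levels and no MOF. H3K4me3 was at a fold enrichment of 11.8 (percentile 89.5) and H3K27Ac at 10.4 (percentile 92.5), with both summits downstream of the TSS, at 223 and 98 bp. The nearest MOF peak lay 41587 bp downstream, was 354 bp wide and scored 237. The promoter of Nfu1 thus had H3K27Ac as high as that of Lyrm4, which carried MOF in a peak at percentile 81.9.

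Over the 9 members the median fold enrichment of H3K4me3 was 7.82, compared with 8.04 over all 14132 genes with H3K4me3, and 4 of 9 members stood above that value. The median of H3K27Ac was 7.83, compared with 6.72 over 11552 genes, and 8 of 9 stood above it. The median MOF score was 789 over the 7 members with MOF, compared with 656 over 6195 genes, and 6 of 7 stood above it. In width, the median H3K4me3 peak of the members was 1652 bp, compared with 1306 bp, and 7 of 9 were wider than that. Members with and without MOF did not separate in either mark: Iscu was near the bottom and Nfu1 near the top.

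H3K4me3 height and width divided the members by arrangement, a pattern noticed after the values had been seen. The 2 members without a neighbour, Iba57 and Nfu1, had the highest H3K4me3 (12.5 and 11.8) in the narrowest peaks (1092 and 1194 bp). The 7 paired members lay between 5.14 and 8.43 in fold enrichment and between 1492 and 2420 bp in width. Under this pairing the groups did not overlap. Over all genes with H3K4me3 the medians differed in the same directions but by less. They were 7.52 and 1605 bp for the 2822 genes with a divergent neighbour, and 8.21 and 1234 bp for the others.

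**Figure D3:**
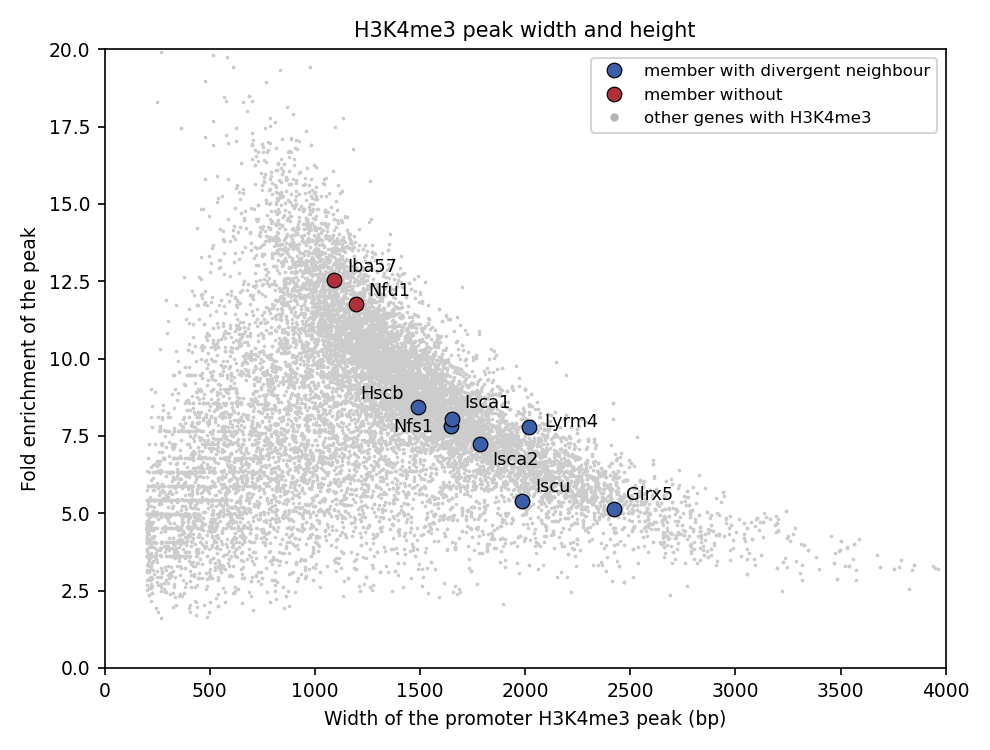
Width (bp) against fold enrichment of the highest H3K4me3 promoter peak for 14132 genes (grey, 4 of them beyond the axes) and the 9 members (large points). Iba57 and Nfu1, without a divergent neighbour, sit at the narrow and high end, and the 7 paired members lie along the same band at greater width and lower height.

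Beyond the promoter, few peaks lay in the members' gene bodies. Apart from Iscu, such peaks were found at Lyrm4, the longest of these genes. Its introns held 3 further H3K27Ac peaks between 105 and 123 kb from the TSS (fold enrichments from 4.98 to 6.39) and 1 H3K4me3 peak at 126 kb (fold enrichment 9.03, 251 bp wide). None of them had MOF or Rfx2. Within 50 kb of the TSS, and leaving out the promoter peaks, the members had a median of 1 MOF peak (at most 3), 2 H3K4me3 peaks (at most 3) and 2 H3K27Ac peaks (at most 5), and no Rfx2 peak.

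Further genes of iron-sulfur cluster biology were counted from lists written from general knowledge with earlier results of these data known. Over all genes, the shares with H3K4me3, H3K27Ac and MOF were 54%, 44.1% and 23.7%. Of genes with both marks, 48.8% had MOF. Of 13 accessory genes of the mitochondrial machinery (such as ferredoxins, the HSP70 chaperone and iron carriers), 13 had H3K4me3, 12 H3K27Ac and 6 MOF. The carrier gene Slc25a37 was the one without H3K27Ac. Their highest MOF scores were at Bola1 (904, percentile 76.2), a partner of Glrx5, Slc25a28 (869, percentile 73.9), a mitochondrial iron importer, Grpel1 (677) and Hspa9 (548), which form the chaperone system that Hscb serves.

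Of 11 genes of the cytosolic assembly pathway, 11 had both marks and 7 had MOF. Ciao3, which passes clusters to the targeting complex, had the highest score among them, 1764 (percentile 98.3), above every member of the mitochondrial group. It was followed by Ciao1 (802), Ciapin1 (738) and Bola2 (507). Of 14 mitochondrial client proteins, which hold a cluster, 14 had both marks and 8 had MOF. High scores were found at Etfdh (1419), which feeds electrons from fatty acid oxidation into the respiratory chain, Lias (1300), the lipoic acid synthase that depends on Nfu1, and Ndufs7 (1186), a complex I subunit. All 3 lay above the highest member, Lyrm4 at 996.

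Of 21 cytosolic and nuclear cluster proteins, 20 had H3K4me3, 19 H3K27Ac and 10 MOF. Rsad2, an interferon-induced antiviral enzyme, had no peak of any list, and the highest MOF scores were at Elp3 (1553), Cdkal1 (1546) and Abce1 (1453), which act in tRNA modification or ribosome recycling. Of 9 haem synthesis genes, 8 had both marks and 5 had MOF. Alas2, the erythroid form of the first enzyme, had no peak, and Ppox (667), Uros (627) and Urod (571) had the highest MOF scores. Fech stood in both the mitochondrial client and the haem lists.

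None of the 67 genes of these 5 lists had Rfx2, beside 1.21% of all genes. Of the 63 that had both marks, 35 had MOF. By arrangement these were 15 of 21 with a divergent neighbour (71.4%) and 20 of 42 without one (47.6%), beside the 62.8% and 44.7% of all genes with both marks given above. The median MOF percentile was 65.9 for the members, 78.9 for the mitochondrial client proteins, 47.1 for the cytosolic and nuclear proteins, 42.0 for the accessory genes, 35.6 for haem synthesis and 26.8 for cytosolic assembly.

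**Figure D4:**
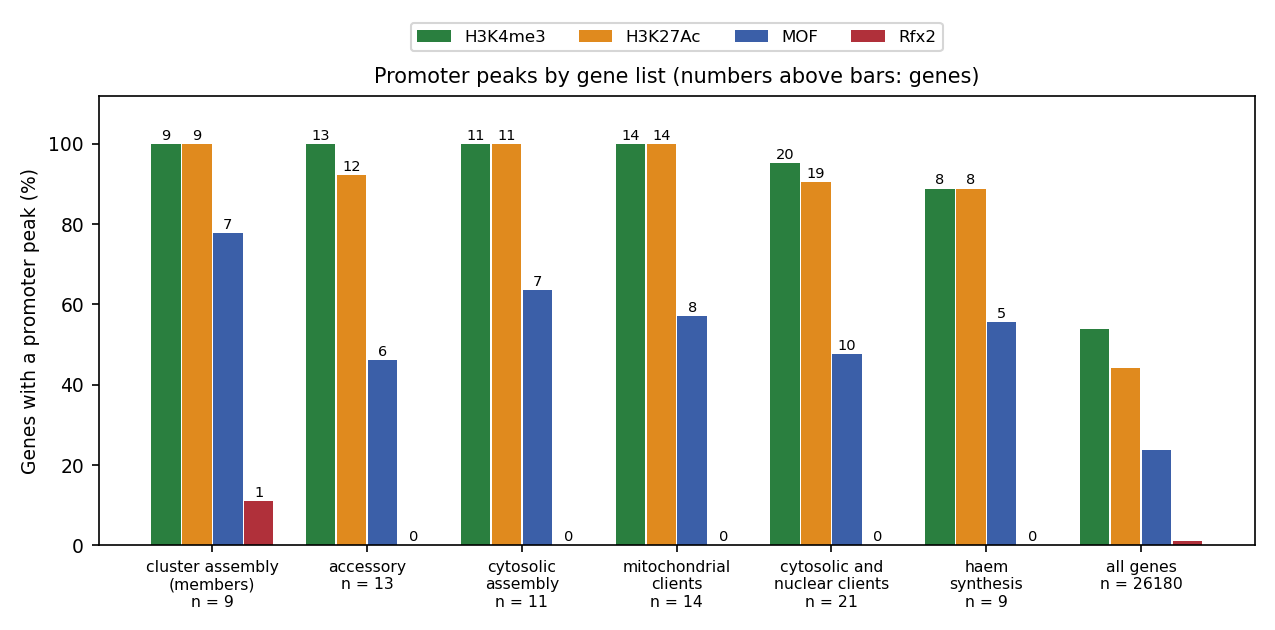
Share of genes (%) with a promoter peak of H3K4me3, H3K27Ac, MOF and Rfx2 in the members, the 5 other lists and all 26180 genes, with the number of genes above each bar of a list. H3K4me3 and H3K27Ac lie between 88.9% and 100% in each list, MOF runs from 46.2% (accessory genes) to 77.8% (members), and Rfx2 is at 1 member and at 1.21% of all genes.

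As a check of the tissue, 7 of 10 keratinocyte markers had H3K4me3, 4 had H3K27Ac and 1 (Krt14) had MOF, beside 54%, 44.1% and 23.7% of all genes. H3K27Ac and MOF were thus no more frequent at these markers than at all genes. Krt5, Krt14 and Trp63 had H3K4me3 at low fold enrichments (3.51, 3.98 and 3.29), and the differentiation genes Krt1, Krt10 and Lor had no H3K4me3 peak. Of 18 markers of 7 other cell types, 4 had H3K4me3 (the melanocyte genes Pmel and Mlana and the fibroblast genes Col1a2 and Pdgfra), 1 had H3K27Ac and 2 had MOF. The fold enrichment of H3K4me3 was 9.86 at Col1a2 and 6.75 at Pdgfra, the genes with the 2 MOF peaks, and 7.24 at Pmel, each above the highest keratinocyte marker, Dsg3 at 5.22. At Mlana it was 4.96. Neither Col1a2 nor Pdgfra had an H3K27Ac peak. Pmel had one at a fold enrichment of 7.84, above the highest of the 4 keratinocyte markers with that mark, Perp at 5.08. The share of these other cell types in the libraries was not tested. In bulk libraries a promoter peak does not tell which cells of the epidermis carry it.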

How the data were processed

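MOF ChIPseq and Cut&Run for Rfx2, H3K4me3 and H3K27Ac were performed on total epidermis, with 1 peak list for each antibody. The authors aligned reads to mm10 with Bowtie2 and called peaks on each library with MACS2. A control library was not given in the sources used here. The deposited Rfx2, H3K4me3 and H3K27Ac lists hold a score, a fold enrichment (ratio) and the −log10 p and q of each peak. The deposited MOF list holds regions with a score of unstated scale and inner blocks. It holds no fold enrichment, so MOF heights were ranked by score. The study states the reads of each library, but the lists hold none for single peaks, so no counting error of a peak was derived.

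Peaks were intersected with promoters of curated RefSeq transcripts (GRCm38.p6, 26180 genes) in Python 3.11.15 with pandas 2.3.3 and numpy 2.4.6. Sequences were read with pysam 0.24.0. Motifs were searched on both strands, the X-box as its paired sites 0 to 3 bases apart. Overlap calls were tested on simulated data against bedtools 2.31.1. No statistical test was possible with 1 library for each antibody. The members and all gene lists were chosen with earlier results of these data known. Named are the members, their neighbours, up to 4 genes of each pathway list (those with Rfx2, then those without H3K4me3, then the highest MOF percentiles) and the 3 genes most like Lyrm4. Slc25a37 and the cell type markers given by name were chosen after their values were seen. Some genes are counted in their lists but not reported here by themselves. Alternatives varied the window, the overlap rule, the strength of the peaks, the transcripts and the pairing distance.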

Additional observations from a re-analysis of the deposited data

How the results depend on the processing

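Of 77 alternatives over 23 results, 67 stayed within the spread or within 1.5 times the reported count. The number of members with MOF ranged from 6 to 8 over the alternatives. It was 8 with 1 or 2.5 kb on either side of the TSS, where Iscu was added, 6 when the peak centre had to lie in the promoter, where Glrx5 was lost, and 6 with the stronger 50% of the list, where Isca2 was lost. With the centre rule 7 members kept H3K4me3 (not Iba57 and Nfu1) and 6 kept H3K27Ac. With the stronger 50% of the MOF list, MOF was left at 3 accessory, 3 cytosolic assembly, 5 mitochondrial client and 2 haem synthesis genes. With the centre rule it was left at 6 cytosolic and nuclear client and 3 haem synthesis genes. In a window of 1 kb upstream to 100 bp downstream, the members with a motif were 2 of 7 for YY1, 2 for ZNF143, 3 for TATA and 1 for the X-box (Lyrm4), beside 7.5%, 10.9%, 36.9% and 2.95% of promoters of genes with H3K4me3. Counting overlapping starts as pairs, an alternative chosen after seeing the data, left 7 paired members. No paired analysis was possible because only 1 list per antibody was used and no result came from a test. Whether a peak missing from a list would appear in a deeper library was not tested.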
